A study of Mus musculus with 12 samples.

Results

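The 8 genes described here encode C-type lectins and related receptors by which myeloid cells bind and take up sugar-bearing material: Clec10a and Mgl2 (the galactose-type lectins), Cd209a, Cd302, Mrc1 (the mannose receptor), Ly75 (DEC-205), Clec12a and Clec7a (Dectin-1). They were picked by name from the 55487 genes of the deposited count table, as lectins of monocyte-derived and type 2 dendritic cells. The choice was made with results of these libraries known and on the same groups, so differences between groups are given for these genes as sizes with intervals, without p-values. Calls of the 8 at the adjusted threshold only describe how they moved with the setting, or stand beside those of all genes. They are no test of these genes, which were picked on the same data. All 8 passed the filter on low counts, as did 14618 genes in all.

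RNA was sequenced in bulk from mouse monocytes labelled Ly6C+, in 4 groups of 3 libraries. The KO group is fetal liver with the genotype label KO at E13.5 (embryonic day). The BM group is bone marrow with the genotype label WT and no age. The Mixed group is fetal liver with the genotype label WT at E15.5. The WT group is fetal liver, with WT 1 at E13.5 and WT 2 and WT 3 at E15.5. A mouse line called Z165KO is named in the series' design text, and cMaf and Zeb2 stand in its title. Which allele the KO libraries carry, the meaning of Mixed, whether the libraries of a group are separate animals or pools, and which surface proteins besides Ly6C guided the sort are not stated in the labels. KO differs from Mixed, and in 2 of 3 libraries from WT, in embryonic day as well, and BM differs from the fetal groups in tissue and stage, which cannot be told apart.

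C-type lectins share a fold that in many of them holds a calcium ion and a sugar. Endocytic members such as the mannose receptor, DEC-205 and the galactose-type lectins bring bound glycoproteins into endosomes, where they can be degraded or loaded for presentation to T cells. Dectin-1 instead signals through Syk and Card9 after binding fungal beta-glucan, and Clec12a carries an inhibitory motif that recruits the phosphatases Shp-1 and Shp-2. On monocytes these receptors are best known from cells that are turning into dendritic cells or macrophages, a step in which IL-4 and GM-CSF raise several of them.

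Total counts ran from 17384911 to 24473471 per library, so 1 count was worth 0.0423 CPM in the deepest library (CPM, counts per 1e+06 on TMM-scaled library sizes). Zeb2, a zinc-finger repressor, had 23.8, 20.1 and 22.5 CPM in KO 1, 2 and 3, against 141, 143 and 165 CPM in WT 1, 2 and 3 (log2 fold change -2.76, SE 0.08, edgeR adjusted p 3.95e-17). Maf had 12.7, 7.94 and 9.34 CPM in KO 1, 2 and 3, against 13.9, 12.1 and 14.9 CPM in WT 1, 2 and 3, and did not pass (log2 fold change -0.45, SE 0.18, edgeR adjusted p 0.0549). The monocyte genes Ly6c2, Csf1r, Ccr2 and Lyz2 were present in all 12 libraries, at 490.3 CPM or more except for Csf1r in KO (353 to 394 CPM). Of 19 tissue macrophage markers, Vsig4 had no count in any library and Clec4f and Timd4 stayed at or under 0.502 and 2.58 CPM. Others were present, reaching 321 CPM for Adgre1, 97.0 for Trem2, 55.3 for Slc40a1, 42.4 for C1qb and 16.2 for Stab1. The summed level of 10 neutrophil markers ran from 10620 to 13390 CPM in KO, 728.5 to 893.8 in BM, 3481 to 3783 in Mixed and 4347 to 6181 in WT. S100a8 and S100a9 had the highest mean log2 CPM of the 10 (10.7 and 9.39).

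Scaled for transcript length (the deposited TPM), the 8 genes spanned over 3 orders of magnitude. Clec7a was highest in every group, with mean TPM of 234 in KO, 342.5 in BM, 228 in Mixed and 195 in WT, and Clec12a was second, at 175 in KO, 179.7 in BM, 131 in Mixed and 133 in WT. Clec7a alone held 54.1% to 57.9% of the summed TPM of the 8 genes in KO, and 42.95% to 48.4% in the libraries of the other groups. Ly75 and Mrc1 were the lowest in BM, Mixed and WT, with mean TPM from 0.317 to 1.97. In KO the lowest were Clec10a, at a mean TPM of 0.0877, and Cd209a, at 0.190. Cd302 held 1.62% to 1.77% of the summed TPM of the 8 genes in KO, against 19.3% to 20.5% in WT. Cd209a held 8.45% to 9.38% in BM, against 1.57% to 2.44% in WT. In such bulk samples, fewer cells that express a gene and less RNA per cell cannot be told apart.

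**Figure D1:**
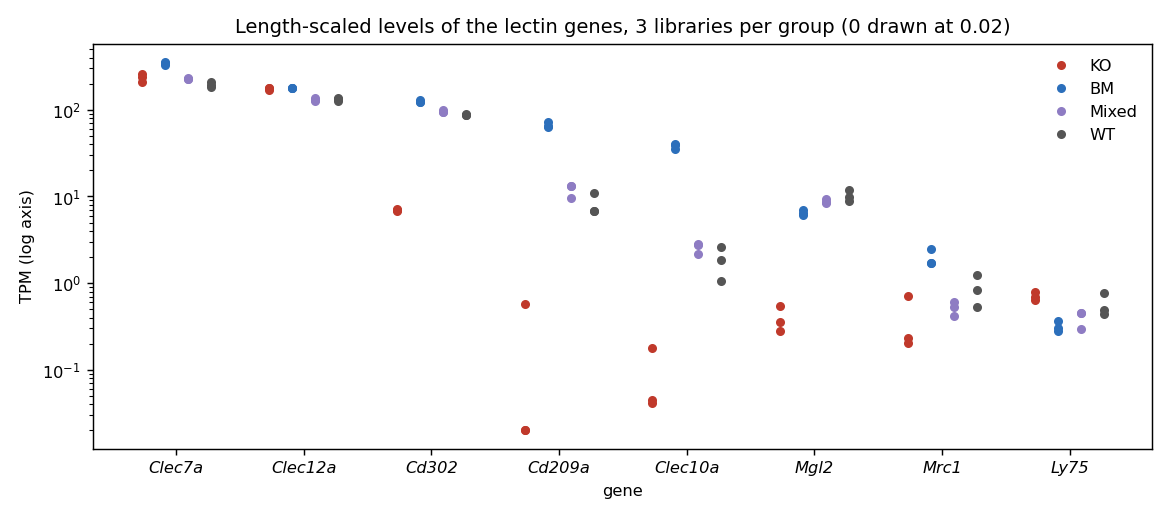
Deposited TPM of the 8 lectin genes on a log axis, 1 point per library, with KO, BM, Mixed and WT from left to right within each gene and values of 0 drawn at 0.02. Clec7a and Clec12a lie at the top in every group, while the KO points of Cd302, Cd209a, Clec10a and Mgl2 lie below all others of those genes.

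The galactose-type lectins are a pair of neighbouring genes. In the mouse, Clec10a encodes MGL1, which binds Lewis X-type sugars, and Mgl2 encodes MGL2, which prefers terminal galactose and N-acetylgalactosamine. In GENCODE's annotation of GRCm38 (the assembly that mm10 names), Mgl2 (ENSMUSG00000040950) lies at chr11:70130329-70137550 and Clec10a (ENSMUSG00000000318) at chr11:70156197-70170834, both on the plus strand, with 18646 bases and no protein-coding gene between them. Their coding sequences were aligned over 914 bases, of which 811 (88.7%) were identical, and the longest identical run was 183 bases. That run ends within the stretch printed here, 137 bases from coding positions 625 to 761 of Clec10a and 673 to 809 of Mgl2. The stretch is shown because it spans the end of that run and the first bases after it by which reads can be assigned. Capitals mark the 7 bases that differ.
Clec10a: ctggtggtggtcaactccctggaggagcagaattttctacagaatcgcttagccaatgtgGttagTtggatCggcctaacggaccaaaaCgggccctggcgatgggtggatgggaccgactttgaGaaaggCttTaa
Mgl2: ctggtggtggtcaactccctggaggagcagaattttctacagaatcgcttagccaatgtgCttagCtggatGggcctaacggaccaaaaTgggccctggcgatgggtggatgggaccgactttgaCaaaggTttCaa
Of the 2302 words of 31 bases in a Clec10a transcript, 362 (15.7%) also occurred in Mgl2 transcripts. For a Mgl2 transcript, 436 of 1605 (27.2%) occurred in other genes, 362 of them in Clec10a.

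Clec10a was almost absent from KO monocytes and high in bone marrow. The rounded count was 1 in each KO library (0.0455, 0.0526 and 0.0423 CPM), which is under the floor of 3 counts per library. In BM 1, 2 and 3 it had 36.2, 39.7 and 38.0 CPM, in Mixed 3.16, 2.14 and 3.08 CPM, and in WT 1.17, 2.10 and 3.10 CPM. All KO libraries lay below all others and all BM libraries above, while Mixed and WT overlapped. Over the 3 libraries of a group the counts were 3 in KO and 134 in WT, so WT was higher by a ratio of 46.9 (95% exact interval 15.7 to 230.3, counting error only). The same ratio was 60.1 for Mixed (20.2 to 294) and 821 for BM (280.5 to 3983). BM was 17.6-fold above WT (log2 4.13, 95% interval 3.71 to 4.56).

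Mgl2 was low in KO but, unlike Clec10a, was not highest in bone marrow. It had 0.364, 0.736 and 0.380 CPM in KO 1, 2 and 3, 7.20, 6.99 and 6.89 in BM, 10.5, 10.3 and 9.43 in Mixed, and 10.8, 10.5 and 14.6 in WT. KO lay below every other group and BM below Mixed and WT, which overlapped. The KO mean was 0.493 ± 0.210 CPM and the WT mean 11.96 ± 2.26 CPM (SD, n = 3 each), a log2 fold change of -4.62 (95% interval -5.09 to -4.14). BM over WT was -0.77 (-1.11 to -0.43).

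How shared reads were divided touches the values of both genes. The deposited estimated counts of the pair were fractional in 11 of 12 libraries, but their sum was a whole number in all 12. Clec10a took 7% to 11.4% of that sum in KO, 83.4% to 85.02% in BM, 17.1% to 24.5% in Mixed and 9.69% to 17.5% in WT. Summed as 1 gene, the pair had 0.540 ± 0.215 CPM in KO, 45 ± 1.67 in BM, 12.9 ± 0.684 in Mixed and 14.1 ± 3.11 in WT (SD, n = 3 each). KO over WT was then -4.73 on the log2 scale (95% interval -5.16 to -4.29), 26.5-fold lower, and BM over WT was 1.67 (1.41 to 1.94). The low level in KO and the high level in BM held for the sum, while the lower Mgl2 of BM was seen only with the deposited division of reads.

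**Figure D2:**
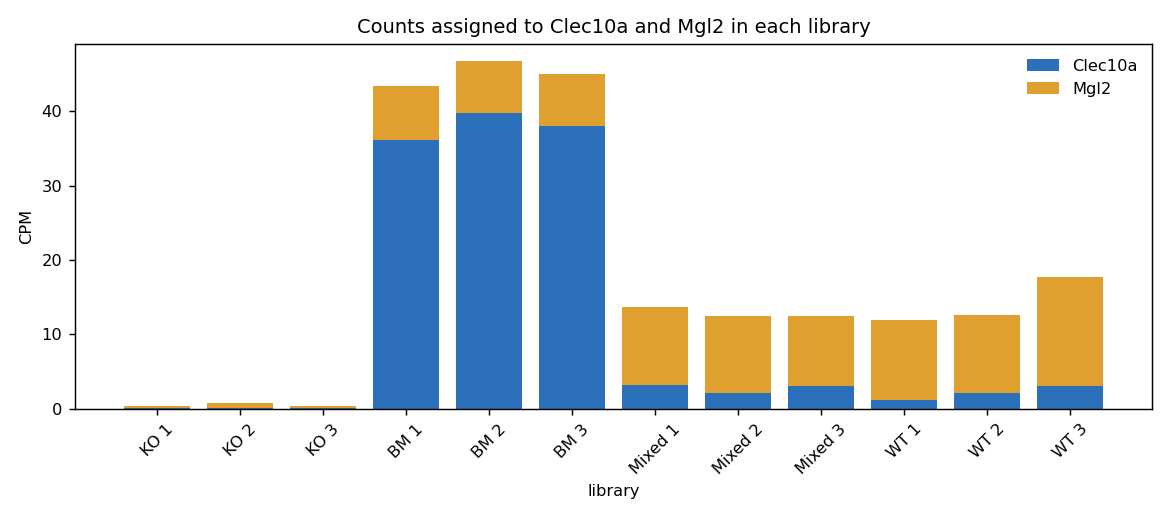
Stacked bars of the CPM assigned to Clec10a (blue) and Mgl2 (orange) in each of the 12 libraries. The KO bars end under 1 CPM, Clec10a fills most of each BM bar, and Mgl2 fills most of each Mixed and WT bar.

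Cd209a, a mouse gene of the DC-SIGN family and a widely used marker of monocyte-derived dendritic cells (ENSMUSG00000031494, chr8:3743397-3748984, minus strand), had no count in KO 1 and KO 2 and 16 counts, 0.676 CPM, in KO 3. With no counts, up to 3 counts remain possible in those 2 libraries, which is 0.136 and 0.158 CPM. BM libraries had 62.9, 72.7 and 61.4 CPM, Mixed 13.2, 13.8 and 9.67 CPM, and WT 7.03, 6.92 and 11.6 CPM. KO lay below and BM above every other group, and Mixed and WT overlapped. KO over WT was -5.08 on the log2 scale (95% interval -6.47 to -3.69), a value set by KO 3 alone on the KO side. Without KO 3 the KO group held no count and the fitted value was -10.46, which is no bound. BM was 7.68-fold above WT (log2 2.94, 2.23 to 3.66), and Mixed over WT was 0.52 (-0.23 to 1.26).

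Cd302, a small membrane lectin that in human macrophages takes part in phagocytosis, adhesion and migration (ENSMUSG00000060703, chr2:60251993-60284488, minus strand, with a processed pseudogene, Gm13573, inside it), was the most abundant of the genes that were low in KO. It had 6.41, 6.73 and 6.42 CPM in KO, 101, 98.9 and 104 in BM, 75.1, 82.3 and 76.9 in Mixed, and 75.8, 75.2 and 75.9 in WT. Its 3 WT libraries differed by under 1 CPM (mean 75.6, SD 0.379). The KO libraries did too (mean 6.52, SD 0.180), but their spread was wider relative to the mean. KO was 11.6-fold lower than WT (log2 -3.54, 95% interval -3.69 to -3.38). BM was 1.34-fold above WT (log2 0.42, 0.30 to 0.54) and did not overlap any fetal library. Mixed and WT overlapped (0.05, -0.08 to 0.17). With 128 to 152 counts per KO library, the Cd302 level in KO is measured and not a floor.

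Ly75 lies 7614 bases from Cd302 on the same strand of chromosome 2 (ENSMUSG00000026980, chr2:60292103-60383303), with no protein-coding gene between them, and in human cells readthrough transcripts joining both genes are known. It encodes DEC-205, an endocytic receptor used to deliver antigen to dendritic cells that present it to CD8 T cells. Ly75 had 4.59, 3.78 and 4.01 CPM in KO, 1.37, 1.86 and 1.49 in BM, 2.29, 1.55 and 2.26 in Mixed, and 2.68, 2.32 and 3.99 in WT. KO lay above BM and Mixed but overlapped WT through WT 3. KO over Mixed was 1.02 on the log2 scale (95% interval 0.49 to 1.55) and KO over BM 1.38 (0.84 to 1.93). KO over WT was 0.46 (-0.05 to 0.98), or 0.72 without WT 3. BM overlapped Mixed but lay below WT, and BM over WT was -0.92 (-1.48 to -0.36). An antisense gene, Gm13571, overlaps Ly75, and without strand their reads cannot be told apart where the exons meet: 189 of the 6871 words of 31 bases in a Ly75 transcript also occurred in that gene's.

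Mrc1 encodes the mannose receptor, CD206, which clears mannose-bearing glycoproteins and is a marker of many resident macrophages (ENSMUSG00000026712, chr2:14229392-14332057, plus strand, with the microRNA gene Mir511 inside it). Its level was low and uneven: 3.23, 1.10 and 0.930 CPM in KO, 6.32, 6.62 and 9.47 in BM, 2.33, 2.14 and 1.68 in Mixed, and 3.57, 2.14 and 5.21 in WT. BM lay above every fetal library, and the 3 fetal groups overlapped. BM over WT was 1.04 on the log2 scale (95% interval 0.20 to 1.87), and 0.76 to 1.09 without BM 2, BM 3, WT 1 or WT 2 in turn. KO over WT was -1.05 (-1.96 to -0.13). It was -1.04 in DESeq2, -1.14 without TMM scaling, -1.02 with no filter on low counts, -1.33 without WT 2 and -1.84 without KO 1. In each of these settings the side of the adjusted threshold changed, so no call is read from either comparison. KO 1 had 71 counts, against 21 and 22 in KO 2 and KO 3. KO over Mixed was -0.22, and -1.02 without KO 1.

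In KO and WT, the library with the most Mrc1 was also the highest of its group for most macrophage markers that had a count, but not in BM or Mixed. Of the 18 such markers in KO, 14 were highest and 1 lowest in KO 1, and of the 18 in WT, 13 were highest and 3 lowest in WT 3. In BM 3 it was 7 highest and 6 lowest of 16, and in Mixed 1 it was 6 and 6 of 18. Within KO, KO 1 had the highest Timd4 (2.23 CPM, against 0.368 and 0.592 in KO 2 and KO 3), Marco (3.32, against 0.263 and 0.254), Lyve1 (2.50, against 0.158 and 0.296) and Cd5l (1.96, against 1.10 and 0.718). Within WT, WT 3 had the highest Stab1 (16.2 CPM, against 7.98 and 7.42 in WT 1 and WT 2), Slc40a1 (55.3, against 21.2 and 26.6) and Cd5l (5.21, against 0.781 and 1.61), while Siglec1 was lowest there (1.79, against 2.51 and 2.28). Between the other WT libraries, WT 1 had more Mrc1 than WT 2, and the markers went both ways. Mertk, Timd4, C1qb, Marco, Trem2, Lyve1, Stab1, Siglec1, Spic and Clec4f were higher in WT 1. Adgre1, Cd163, C1qa, C1qc, Cd5l, Folr2, Slc40a1 and Nr1h3 were higher in WT 2. The summed level of the 19 markers was 236 to 298 CPM in KO, 389 to 414 in BM, 376 to 394 in Mixed and 330 to 454 in WT. Adgre1 had the highest mean log2 CPM of them (7.82) and weighs most in that sum. In bone marrow, where Mrc1 was highest, Timd4 was at or under 0.140 CPM, Marco had no count and Stab1 was at or under 1.54 CPM. In contrast, 3 markers stood above every fetal library in BM. Cd163 had 4.73, 5.64 and 5.06 CPM there and at most 0.137 CPM in any fetal library. Siglec1 had 5.77, 5.08 and 6.10 CPM in BM and at most 2.51 in a fetal library. Adgre1 had 308, 321 and 316 CPM in BM and at most 238 in a fetal library. The part of macrophages in the Mrc1 values was not tested.

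Clec12a and Clec7a, which signal by opposite routes, were the 2 lectins that were higher in both KO and BM. They share the Dectin-1 cluster of chromosome 6 (Clec12a, ENSMUSG00000053063, chr6:129342691-129365303, plus strand; Clec7a, ENSMUSG00000079293, chr6:129461591-129472779, minus strand), 96287 bases apart. Clec12a had 291, 310.3 and 296 CPM in KO, 284, 278 and 278 in BM, 207, 204 and 203 in Mixed, and 208, 207 and 206.5 in WT. KO stood just above BM, with no overlap, and both stood far above Mixed and WT, whose ranges overlapped. KO over WT was 0.53 on the log2 scale (95% interval 0.43 to 0.63), a 1.44-fold difference, BM over WT 0.43 (0.34 to 0.53) and KO over BM 0.09, with an interval whose lower end was -0.004 and upper end 0.19. The order of KO and BM depends on the scale: in the deposited TPM, Clec12a was at 168.1 to 178.3 in KO and 179.6 to 179.7 in BM, so KO lay below BM, and both remained above Mixed and WT.

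Clec7a had 283, 357 and 317 CPM in KO, 406, 408 and 376 in BM, 258, 270.2 and 268 in Mixed, and 234, 235 and 265 in WT. BM lay above every other library and KO above Mixed and WT, which overlapped through WT 3. In TPM, BM was also highest, but KO (208.8 to 255.8) overlapped Mixed (225.2 to 231.3) and WT (181.7 to 210.0). KO over WT was 0.38 (95% interval 0.24 to 0.53), BM over WT 0.70 (0.55 to 0.84), KO over Mixed 0.27 (0.12 to 0.41) and KO over BM -0.32 (-0.46 to -0.17). KO over Mixed lost its call without TMM scaling (0.16). The GENCODE annotation types Clec7a as a polymorphic pseudogene, a class for genes that are intact in some strains. Its reads were abundant, from 4193 to 8761 counts per library.

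**Figure D3:**
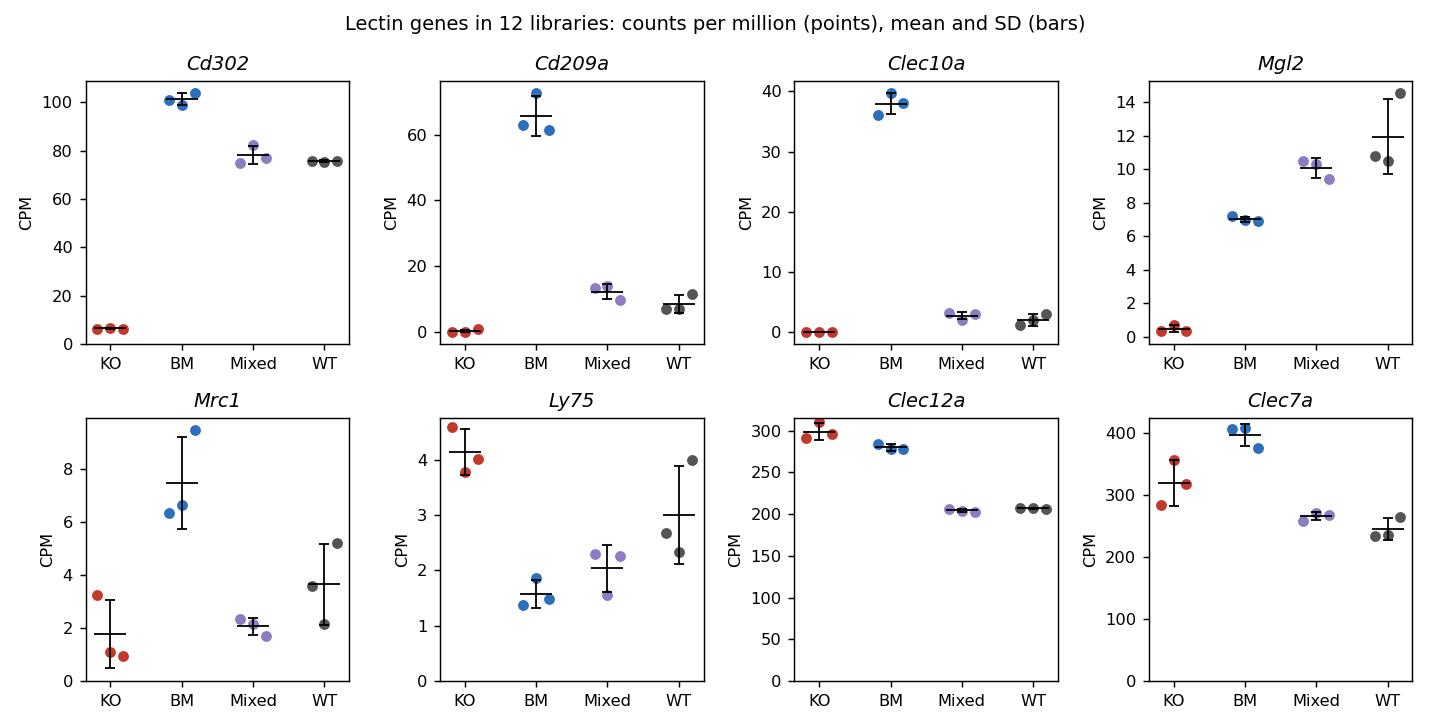
CPM of each lectin gene in the 12 libraries, with KO, BM, Mixed and WT from left to right, points for libraries, and horizontal bars with whiskers for the mean and SD of 3 libraries. Each panel has its own axis from about 0. Cd302, Cd209a, Clec10a and Mgl2 lie lowest in KO, and Clec12a and Clec7a lie higher in KO and BM than in Mixed and WT.

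Across the 8 genes, KO against WT gave 2 called higher and 4 called lower at an adjusted p under 0.05 in edgeR, where 38.1% of all 14618 genes were called, 18.2% higher and 19.9% lower. Counted by library on the CPM scale, as in the counts of overlap that follow, 2 genes lay wholly above and 4 wholly below, and 47.4% of all genes did not overlap. For BM against WT, 6 were called higher and 2 lower, beside 64% of all genes, 32.1% higher and 31.9% lower, and all 8 were free of overlap, beside 68.1%. Mixed against WT gave no call among the 8, beside 8.07% of all genes called, 4.21% higher and 3.87% lower, and only Ly75 did not overlap, being lower in Mixed, beside 27% of all genes. The genes were chosen on these groups, so nothing is read from their counts. The median log2 fold change of the 8 was -2.29 in KO over WT, 0.57 in BM over WT and 0.01 in Mixed over WT, while that of all genes tested was -0.029, 0.003 and -0.006.

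KO against Mixed gave 3 higher (Ly75, Clec12a and Clec7a) and 4 lower (Cd302, Cd209a, Clec10a and Mgl2), beside 36.7% of all genes called (18.2% higher, 18.5% lower), and 7 without overlap, beside 48.3%. BM against Mixed gave 6 higher and 1 lower, Mgl2, beside 58.4% called (29.5% higher, 28.9% lower), and 7 without overlap, beside 64.2%. KO against BM gave 1 higher, Ly75, and 6 lower, with Clec12a not called (but called higher in DESeq2, with RLE factors, with a minimum count of 30 and without BM 2, at 0.12 to 0.14), beside 63.8% called (32% higher, 31.8% lower), and all 8 without overlap, beside 67.7%. These comparisons share libraries with those against WT. KO over Mixed was -3.58 for Cd302, -5.60 for Cd209a and -4.37 for Mgl2 on the log2 scale, next to -3.54, -5.08 and -4.62 for KO over WT.

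**Figure D4:**
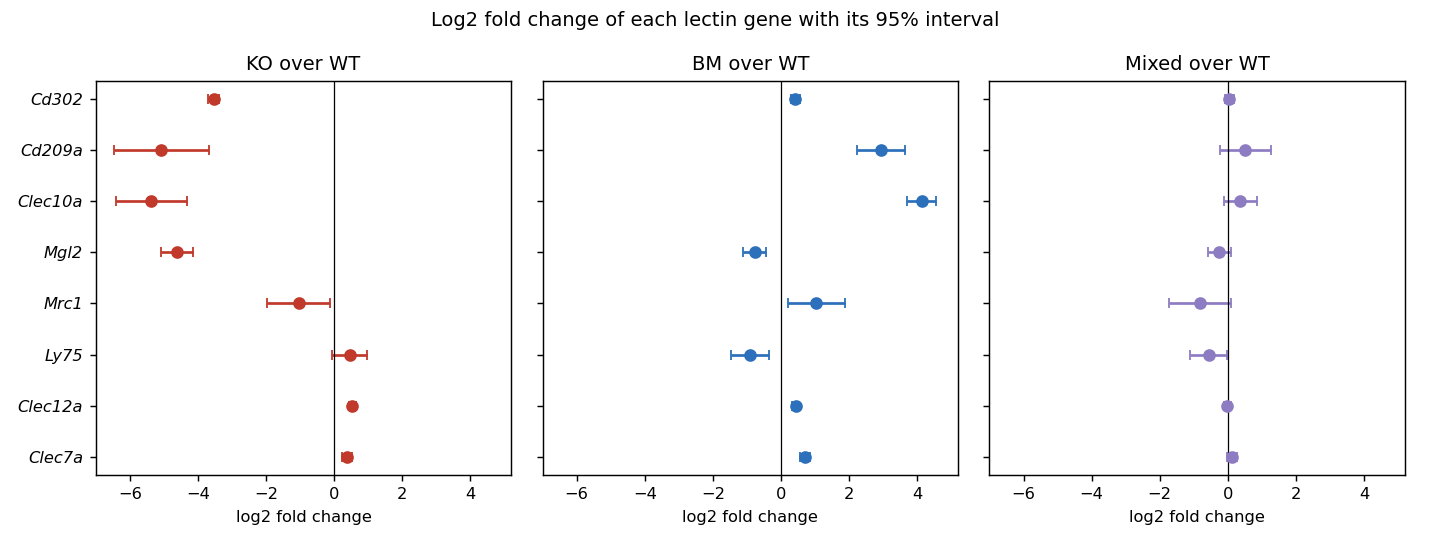
Log2 fold changes from edgeR with 95% intervals for the 8 lectin genes, in KO over WT, BM over WT and Mixed over WT. Cd302, Cd209a, Clec10a and Mgl2 lie between -3.54 and -5.37 in KO over WT, where the Clec10a value rests on 3 KO counts, and the Mixed over WT values lie between -0.82 and 0.52.

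Embryonic day could be held fixed in part. At E13.5 the 3 KO libraries could be set beside WT 1 alone, with no replicate of WT. The KO mean was 6.52 CPM for Cd302 against 75.8 in WT 1, 11.6-fold lower, and 0.493 CPM for Mgl2 against 10.8, 21.9-fold lower. For Cd209a it was 0.225 CPM in KO against 7.03 in WT 1, and for Clec10a 0.0468 CPM in KO, from 3 counts in all, against 1.17 in WT 1. Clec12a was 1.44-fold, Clec7a 1.36-fold and Ly75 1.54-fold higher in KO than in WT 1, and Mrc1 was at 0.491 of its level. At E15.5, Mixed over the mean of WT 2 and WT 3 ranged from 0.558 for Mrc1 to 1.32 for Cd209a, and the libraries overlapped for every gene but Ly75. With embryonic day as a term over the 9 fetal libraries, KO over Mixed was 1.27 for Ly75 and 0.37 for Clec7a, and neither passed. All KO libraries are E13.5 and all Mixed libraries E15.5, so that term is set only by WT 1 against WT 2 and WT 3. The Clec10a values became smaller with that term, -4.48 for KO over WT and -4.59 for KO over Mixed, against -5.37 and -5.74 without it, all resting on 3 KO counts.

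Promoters are shown for the lectins that were low in KO and have an entry in the RefSeq table of GRCm38.p6, because zinc-finger repressors of the Zeb family are known to bind CACCT and CACCTG. Of the 8 genes, 7 matched, all but Clec10a. Each sequence is the 250 bases before the annotated start, 5′ to 3′ on the gene's strand, with CACCT matches on either strand in capitals.
Cd302, chr2:60284485-60284734, minus strand: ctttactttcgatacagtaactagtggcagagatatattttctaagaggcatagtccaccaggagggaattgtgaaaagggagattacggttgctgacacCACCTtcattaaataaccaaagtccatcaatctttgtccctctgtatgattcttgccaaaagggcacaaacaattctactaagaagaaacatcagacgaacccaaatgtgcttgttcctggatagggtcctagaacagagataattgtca
Cd209a, chr8:3748985-3749234, minus strand: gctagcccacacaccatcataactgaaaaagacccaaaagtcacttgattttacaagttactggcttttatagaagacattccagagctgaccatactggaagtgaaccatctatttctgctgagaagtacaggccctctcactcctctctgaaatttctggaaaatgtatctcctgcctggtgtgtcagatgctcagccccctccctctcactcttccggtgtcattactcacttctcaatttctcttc
Mgl2, chr11:70130107-70130356, plus strand: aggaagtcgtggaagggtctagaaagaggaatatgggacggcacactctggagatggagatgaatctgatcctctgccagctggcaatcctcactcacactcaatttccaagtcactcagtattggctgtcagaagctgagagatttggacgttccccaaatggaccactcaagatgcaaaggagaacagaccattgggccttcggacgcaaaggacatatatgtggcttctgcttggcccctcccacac
CACCT, which also counts matches within CACCTG, was found once among the 7 genes, 150 bases before the Cd302 start, and 46.0% of 32817 promoters of this length hold it. CACCTG, present in 17.2% of promoters, was in none of the 7. The motif TTGCNNAA (9.6%), of the kind C/EBP factors bind, was found in Cd302, Ly75 and Clec12a. Each is a match of letters in a short window, and binding was not measured.

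Other lectins were read from lists of related genes, also drawn up with results of these data known. The counts called in these lists stand beside those of all genes. Against WT, 18.2% of all genes were higher and 19.9% lower in KO, 32.1% and 31.9% in BM, and 4.21% and 3.87% in Mixed. Of 19 further genes listed as endocytic lectins, 10 were tested. That list also holds lectin-like and cargo receptors, such as Cd93, Thbd and Lman1. In KO against WT 6 were lower and 1 higher (median log2 -2.02, also with Cd209b at its bound, and -0.029 for all genes). Cd93, a lectin-like receptor of early myeloid and endothelial cells, had 8.58 ± 1.51 CPM in KO, against 30.8 ± 4.38 in WT (log2 -1.84, SE 0.15, edgeR adjusted p 5.73e-08). Thbd, thrombomodulin, which binds thrombin and marks some dendritic cells, was lower (-0.52, SE 0.13, edgeR adjusted p 0.00398), as was Lman1, an endoplasmic reticulum cargo receptor that binds mannose (-0.39, SE 0.07, edgeR adjusted p 0.000123). The scavenger lectin Colec12 (0.216 ± 0.129 CPM in KO, 2.58 ± 0.325 in WT) and the low Cd209b and Clec4g also passed, and are named here after their values were seen. Cd209b had no count in KO and 1.01 ± 0.393 CPM in WT, at least 7.21-fold lower in KO from a floor of 3 counts per library. The 1 higher gene, Asgr2, had 0.224 CPM in KO monocytes and 0.0313 CPM in WT monocytes, and did not pass under several alternatives (edgeR adjusted p 0.0502 without TMM scaling). Among 9 lectins of the Dectin-2 cluster, which lies elsewhere on chromosome 6, 5 were lower and 1 higher in KO against WT. The 1 higher gene, Clec4b2, was at log2 2.72 (SE 0.34, edgeR adjusted p 1.52e-06). Its mean log2 CPM was low, at 0.27, and it is named here after its values were seen. Of the 5 lower, Clec4a1 (-0.18) lost its call under several alternatives, among them RLE factors, DESeq2 and a minimum count of 30. Clec4n (Dectin-2, a receptor for fungal mannans) was at log2 -1.36 (SE 0.16, edgeR adjusted p 5.53e-07), Clec4a2 at -0.89 (SE 0.06, 2.08e-10) and Clec4a3 at -0.89 (SE 0.09, 1.33e-07).

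Of 10 further genes listed with the Dectin-1 cluster, some of them from outside it, 8 were tested. In KO against WT 5 were higher and 1 lower. Of those 5, Clec2d, Clec2i and Klrb1b do not lie between Clec12a and Clec7a. Clec9a, a receptor for actin of dead cells and a marker of type 1 dendritic cells, which lies between the pair, had 20.6 ± 2.48 CPM in KO, against 0.0499 ± 0.0473 in WT (log2 8.55, SE 0.40, edgeR adjusted p 2.40e-13), and its neighbour Clec1a had 1.43 ± 0.496 and 0.0783 ± 0.136 CPM (4.05, SE 0.77, 0.000234). Both are named here after their values were seen. Clec2i was higher (1.45, SE 0.11, edgeR adjusted p 9.77e-10), and Olr1, the oxidised LDL receptor, was lower (-0.70, SE 0.14, 0.000382). Next to these, the KO over WT differences of Clec12a and Clec7a were small, at 0.53 and 0.38.

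In bone marrow, genes of the endocytic lectin list and of the Dectin-2 cluster were more often called higher than lower against WT. Of all genes, 32.1% were called higher and 31.9% lower. Of the 10 tested in the first list, 5 were higher and 1, Lman1, was lower. The 5 were Cd93, Thbd, Lman2, Asgr2 and Cd209d, of which the last 2 were low (mean log2 CPM -1.70 and -1.84). They include lectin-like receptors, so the count is no trend of endocytic lectins as such. Cd93 had 99.4 ± 5.87 CPM in BM, against 30.8 ± 4.38 in WT (log2 1.69, SE 0.13, edgeR adjusted p 8.34e-09), and Thbd 51.9 ± 6.57 and 14.9 ± 1.35 CPM (1.80, SE 0.12, 4.88e-11). In the Dectin-2 cluster 6 were higher and 2 lower of 9, with Clec4a3 at 2.50 (SE 0.09, edgeR adjusted p 1.12e-15), Clec4e (Mincle) at 1.68 (SE 0.15, 1.84e-09), Clec4a1 at 1.60 (SE 0.06, 3.68e-15) and Clec4n at -2.77 (SE 0.18, 1.31e-11). Of the 8 tested genes listed with the Dectin-1 cluster, 2 were higher and 3 lower. Clec2i was at 3.70 (SE 0.11, edgeR adjusted p 2.74e-17) and Cd69 at -2.29 (SE 0.12, 2.55e-12), and neither lies between Clec12a and Clec7a.

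**Figure D5:**
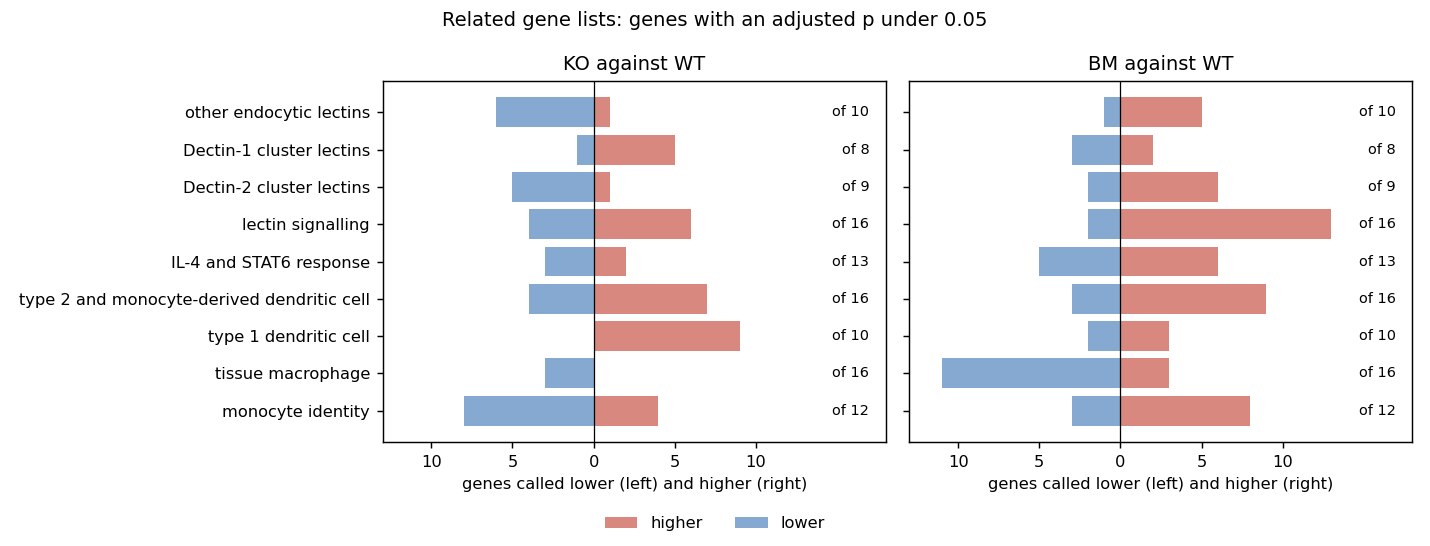
Number of genes called lower (left of 0, blue) and higher (right of 0, red) at an edgeR adjusted p under 0.05 in lists related to the lectins, for KO against WT and BM against WT, with the number tested at the right. Of 10 tested genes listed as other endocytic lectins, 6 were lower and 1 higher in KO and 5 higher and 1 lower in BM. The lectin signalling list was mostly higher in BM, where 32.1% of all genes were called higher and 31.9% lower.

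Signalling partners of the lectins went both ways in KO. Of 16 tested, 6 were higher and 4 lower in KO against WT, with a median of 0.07. Syk, the kinase downstream of Clec7a, had 136 ± 0.440 CPM in KO, against 128 ± 4.64 in WT (log2 0.09, SE 0.06, edgeR adjusted p 0.274). Nfatc2 was higher (2.54, SE 0.26, edgeR adjusted p 1.60e-07), as was the inositol phosphatase Inpp5d (0.41, SE 0.07, 8.24e-05). Card9, the adaptor that joins Syk to NF-kappaB, was lower (-0.89, SE 0.27, edgeR adjusted p 0.0319), a call lost when any WT library was left out (edgeR adjusted p 0.0702, 0.0635 and 0.0808 without WT 1, WT 2 and WT 3). In BM, 13 of 16 were higher than in WT and 2 lower, beside 32.1% and 31.9% of all genes. Tyrobp was at 1.11 (SE 0.06, edgeR adjusted p 5.04e-13), Nfatc2 at 2.16 (SE 0.26, 5.21e-07), Card9 at -2.50 (SE 0.30, 7.90e-05) and Ptpn11, the gene of Shp-2, at -1.07 (SE 0.11, 1.72e-08). In Mixed against WT, 7 of 16 were higher and none lower, beside 4.21% and 3.87% of all genes. Of those 7, Syk, Plcg2, Vav1 and Inpp5d did not pass within E15.5.

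Genes of the IL-4 and STAT6 response, which raises Mrc1, Clec10a and Mgl2 in macrophages, split. The list joins genes of the pathway, such as Il4ra, Jak1 and Stat6, to response genes. In KO against WT, 2 were higher and 3 (Tfec, Jak1 and Arg1) lower of 13 tested. With an embryonic day term, Jak1 (-0.14, edgeR adjusted p 0.227) and Arg1 (-0.60, 0.563) did not pass. Il4ra and Stat6 did not pass (log2 0.12 and -0.08, edgeR adjusted p 0.150 and 0.249). Cish, a feedback inhibitor of cytokine receptors, was higher (2.53, SE 0.25, edgeR adjusted p 4.51e-08) and the transcription factor Tfec lower (-1.32, SE 0.07, 2.94e-12). In BM against WT, 6 were higher and 5 lower, led by Chil3, the gene of the secreted lectin Ym1, with 2155 ± 19.7 CPM in BM, against 3.85 ± 2.61 in WT (log2 9.11, edgeR adjusted p 5.92e-08), and Stat6 was higher (0.98, edgeR adjusted p 3.35e-13) while Il4ra was lower (-0.42, 7.30e-06). Retnla, Ccl17, Ccl22, Pdcd1lg2 and Socs1 did not pass the filter on low counts.

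Markers of type 2 and monocyte-derived dendritic cells also went both ways in KO. Of 16 tested, 7 were higher and 4 lower in KO against WT (median 0.05). Itgax, which encodes CD11c, was at log2 3.79 (edgeR adjusted p 5.19e-13), the cytokine receptor Flt3 at 3.35 (1.45e-15), Cd24a at 3.21 (1.71e-05), and the chemokine Ccl9 at -2.38 (1.81e-16). Of 10 type 1 dendritic cell markers, 9 were higher and none lower, with Batf3 at 3.74 (edgeR adjusted p 9.27e-16), Snx22 at 3.54 (3.93e-16), Cadm1 at 3.18 (1.21e-09) and Tlr3 at 3.00 (1.92e-11). Their summed level was 1295 to 1453 CPM in KO, 856 to 878.5 in BM, 514 to 545.5 in Mixed and 444 to 455 in WT. Irf8 and Naaa had the highest mean log2 CPM of the 10 (8.81 and 7.02) and weigh most in that sum. Against WT, BM had 3 of the 10 higher, 2 lower and 5 not called (median log2 0.03), with Cadm1 at -2.44 and Tlr3 at -1.75. The part of these markers in the Ly75, Clec12a and Clec7a values was not tested. In BM against WT, 9 of the 16 type 2 and monocyte-derived markers were higher and 3 lower, beside 32.1% and 31.9% of all genes. They were led by Irf4, a transcription factor of these cells, with 15.4 ± 2.36 CPM in BM, against 1.34 ± 0.395 in WT (log2 3.53, edgeR adjusted p 4.03e-09).

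Among 16 tissue macrophage genes tested, 3 were lower and none higher in KO against WT: Trem2, a lipid receptor, at log2 -2.95 (edgeR adjusted p 3.74e-14), Nr1h3 at -1.65 (7.90e-06) and the phagocytic receptor Mertk at -0.59 (0.00874). In BM against WT, 11 were lower and 3 (Cd163, Siglec1 and Adgre1) higher, with C1qb at -4.01 (7.22e-07, edgeR adjusted p), Stab1 at -3.71, Mertk at -3.40 and Slc40a1 at -2.39. Of the monocyte genes, 4 were higher and 8 lower in KO, with Ly6c2 at 1.54 (edgeR adjusted p 9.99e-15), F13a1 at -2.64 (2.19e-15), Vcan at -2.33 (1.56e-06) and Cd14 at -1.60 (6.02e-05). Neutrophil markers were higher in KO for 5 of 10 (Ly6g, S100a8, S100a9, Mmp8 and Cxcr2), with Mmp8 at 2.67 (edgeR adjusted p 8.34e-15). The other 5 were not called: Ngp at -0.80, Camp at -0.39, Ltf at -0.54, Mmp9 at -0.10 and Retnlg at 0.28. In BM, neutrophil markers were lower for 6 of 10, and all 9 red cell markers were lower, with summed levels of 5.50 to 22.4 CPM in BM and 987 to 1884 CPM in WT. How far such markers bear on the lectin levels was not tested.

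Genes whose levels ran most like each lectin over the 12 libraries were found by Pearson's r of log2 CPM among 9732 genes (9733 for Clec7a). These had a mean log2 CPM of 1 or more, and predicted genes, Rik and clone-named genes and pseudogenes were left out. The 12 points share 4 groups, so r mostly ranks the pattern of group means, and it is given as a description. Nearest to Cd302 were S100a1, Gpsm2 and Lgals1 (r 0.989 to 0.991), with Gpsm2 at 1.10 CPM in KO, 43.8 in BM, 19.4 in Mixed and 20.8 in WT. For Cd209a they were Tcea3, Uap1l1 and Slc43a3 (0.989 to 0.992). Clec10a ran with Cx3cr1, Treml4 and Prdx4 (0.994 to 0.995), and Cx3cr1, the fractalkine receptor, had 20.8 ± 2.54 CPM in KO, 361 ± 4.27 in BM, 90.6 ± 3.75 in Mixed and 85.1 ± 15.6 in WT (SD, n = 3 each). Mgl2 ran with Cyp20a1, Trem2 and Pip4p2 (0.984 to 0.989), and Trem2 had 10.8 CPM in KO, 62.4 in BM, 91.6 in Mixed and 83.7 in WT. Clec12a ran with Dpp4, Ifit2 and Lpar6 (0.994 each), of which Dpp4, a surface peptidase, had 79.8 CPM in KO, 38.6 in BM, 2.54 in Mixed and 3.10 in WT. Clec7a had Cdk5, Scp2 and Ing4 nearest (0.972 to 0.974). The values for Ly75 (Itgb2l, Itih5 and Inhba, 0.949 to 0.959) and Mrc1 (Tmx4, Wipi2 and Cmtm7, 0.938 to 0.944) were lower.

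Between the lectins themselves, r over the same 12 libraries was 0.962 for Cd302 with Mgl2, 0.942 for Cd209a with Clec10a, 0.936 for Cd302 with Cd209a and 0.799 for Clec12a with Clec7a. Ly75 ran opposite to Clec10a (-0.834) and Cd209a (-0.826). Clec10a with Mgl2, the duplicated neighbours, reached 0.723, and Cd302 with Ly75, the adjacent pair, -0.779. Shared reads between Clec10a and Mgl2 touch the first of these 2 values.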

How the data were processed

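The deposited tables held estimated counts per gene (expected counts, in part not whole: 28.6% of nonzero values at a tolerance of 1e-06) and TPM, made by the authors. Salmon, STAR, featureCounts, Subread and DRAGEN are named with mm10 in no order, per the submitters' processing notes. Per the labels' protocols, libraries came from a SMARTer Ultra Low RNA kit, which marks no strand, on a NovaSeq X Plus. The deposited CPM table was not used.

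From the 55774 entries, 287 duplicates were removed and values were rounded. Genes were filtered with filterByExpr (minimum count 10, total 15; 40869 removed), scaled by TMM and fitted in edgeR 4.0.16 (R 4.3.3) by the quasi-likelihood test over all 12 libraries with a mean per group. P-values are two-sided and Benjamini-Hochberg adjusted over 14618 genes, and a gene is called at an adjusted p under 0.05. The SE is the log2 fold change divided by the root of F. Levels are mean ± SD of 3 libraries. Intervals from counts and floors of 3 counts cover counting error only, since reads carried no molecular identifiers. The labels do not say that libraries came from separate animals, so p-values measure only how these samples vary, which may be technical variation. No 2 libraries of a group agreed within sampling noise (chi-square per degree of freedom at least 4.49). The fit was tested on simulated data.

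The 8 lectins, the 15 gene lists and the tests were chosen with earlier results of these data known. The rule for other genes took, per list, up to 4 called genes of largest change whose mean log2 CPM was 1 or more in KO against WT and in BM against WT, and up to 3 most correlated genes per lectin. Some genes that the rule names in marker lists are given only in counts. Alternatives were another scaling, filter, tool or set of samples, an embryonic day term, a replicate block and leaving out each library. Summing Clec10a and Mgl2 was added after seeing the data. Sequences are from GENCODE M21 transcripts and RefSeq promoters. Words shared between genes were counted on 1 transcript per lectin, against all other genes' transcripts.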

Additional observations from a re-analysis of the deposited data

How the results depend on the processing

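Of 956 log2 fold changes of the 8 lectins under alternatives, 905 moved by less than the SD between replicates, 49 moved by more, and 2 called values turned round. Both were Mgl2 when its counts were summed with those of Clec10a: 1.80 for BM over Mixed and 1.67 for BM over WT. Mrc1 in KO over Mixed, not called, also turned positive without KO 2 (0.004) and without KO 3 (0.10), counted among the 905. Cd302, Cd209a, Clec10a and Mgl2 stayed lower, and Clec12a and Clec7a higher, in KO over WT under all 20 alternatives run. With an embryonic day term, KO against Mixed called 1978 genes and 58 list genes. Mixed against WT called 399 genes and 14 list genes with that term, 518 genes within E15.5, and 35 list genes and 1 lectin (Mrc1) with no filter. The embryonic day term is set only by WT 1 against WT 2 and WT 3, since KO and Mixed are each of a single day. Why these counts moved was not tested. Leaving out 1 library at a time gave, for all genes, 4803 to 5614 calls in KO against WT, 8756 to 9450 in BM against WT, 414 to 1457 in Mixed against WT, 4553 to 5548 in KO against Mixed, 7874 to 8722 in BM against Mixed and 8800 to 9531 in KO against BM. Among list genes the same order of comparisons gave 76 to 83, 117 to 124, 17 to 31, 82 to 94, 103 to 118 and 131 to 136, and among the lectins 6 to 7, 7 to 8, 0 to 1, 7 to 8, 7 and 7 to 8. The lectin that Mixed against WT gained was Clec10a, without WT 3 (log2 0.73, against 0.37 with it).

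With the replicate number as a block, all-gene calls were 5525 in KO against WT, 9262 in BM against WT and 1168 in Mixed against WT, and no lectin changed its call. Same-numbered libraries did not deviate together (18 pairs, r -0.035 to 0.069, none over 0.1), and a library correlated best with its own number in 7 of 18 cases, so they share only a number. The depth leaves Clec10a at 1 count in each KO library, where a fold is a counting ratio, and Cd209a at 0 in KO 1 and KO 2, where a fold rests on KO 3.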
